A study of Mus musculus with 12 samples.

Results

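The enzymes and cofactors that degrade messenger RNA were followed from mouse embryonic stem cells (ESCs) into epiblast-like cells (EpiLCs). The members were 48 listed gene symbols of the deadenylation, decapping, exonuclease, exosome and nonsense-mediated decay pathways, matched by symbol to the genes of the deposited count table. Of these, 47 were found among 51467 genes in all. The remaining symbol, Pat1, names no gene in the GENCODE annotation used and was not analysed here. All 47 passed the filter on low counts, as did 14731 genes in total, so none of the counts given for the members rests on a subset of them.

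The ESC groups were grown with serum, LIF and the 2i inhibitors PD0325901 and CHIR99021, which hold cells in the naive state. The EpiLC groups came from the same ESCs, plated for a day and collected 56 h after LIF and 2i had been taken away. Per the study's methods, the differentiated line was V6.5 carrying the miR290-mCherry and miR302-GFP reporters, so all values describe 1 parental line. All cells, ESC and EpiLC alike, were fed 4-thiouridine (4sU) at 500 µM for 30 min, and their RNA was then divided between a captured fraction of labelled, newly made RNA (4sU or nascent RNA) and an unselected fraction depleted of ribosomal RNA (total RNA). Each of the 4 groups had 3 libraries. No deletion or other treatment was named in the labels of any group.

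Most mRNAs are degraded in steps. The CCR4-NOT and PAN2-PAN3 complexes shorten the poly(A) tail, the DCP2 enzyme then removes the cap, and XRN1 digests the body from the 5′ end, while the exosome can digest it from the 3′ end. Nonsense-mediated decay uses the UPF and SMG proteins to recognise transcripts on which translation stops too early. DDX6, a helicase that bridges deadenylation and decapping, was the gene the study deleted in its other experiments.

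Libraries held 3097693 to 5385644 gene counts for 4sU RNA and 9300845 to 21975684 for total RNA. Counting error therefore weighs more on nascent RNA. The lowest count of any member in any library was 24, for Dcp1b in the ESC 4sU replicate 3 library. The labelled states were checked against marker genes. The summed level of 5 naive markers (Zfp42, Esrrb, Klf4, Tfcp2l1 and Nr0b1) was 2380.0 to 2620.0 CPM (counts scaled to a common library total) in ESC total RNA and 46 to 52.7 CPM in EpiLC total RNA. The summed level of 5 primed markers (Fgf5, Otx2, Dnmt3b, Pou3f1 and Sox3) was 147 to 159 CPM in ESC and 1320.0 to 1620.0 CPM in EpiLC. In total RNA, markers of other cell types were low but mostly higher in EpiLC. The 5 fibroblast genes summed to 3.9 to 4.7 CPM in ESC and 9.99 to 14.5 CPM in EpiLC, with Postn, Col3a1 and Col1a1 under 2 CPM. The 3 mesendoderm genes summed to 0.889 to 3.2 and 8.29 to 12 CPM, and the 3 trophoblast genes to 0.889 to 2.43 and 4.6 to 6.59 CPM. The 4 primitive endoderm genes summed to 3.2 to 8 and 5.9 to 6.19 CPM. The part of such cells in the member values was not tested. Both ESC replicate 3 libraries stood apart from the other ESC libraries on the third principal component, which held 2.33% of the variance, and the counts of calls are given with and without them.

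The members differed widely in level. On a per-length scale (CPM per kilobase of exon), the member levels in ESC total RNA ran from 1.67 for Dcp1b to 144 for Cnot1, an 86.2-fold range, with a median of 23.2 against 8.03 for all genes kept. In EpiLC total RNA the levels ran from 2.54 for Dcp1b to 125 for Cnot1, with a median of 24 against 7.67. Members above the median of all genes numbered 40 in ESC and 41 in EpiLC. Cnot1, the scaffold on which CCR4-NOT is built, and Xrn2, the nuclear 5′-to-3′ exonuclease, led in ESC at 144 ± 28 and 140.0 ± 8.85 CPM per kilobase (SD, n = 3), which did not differ beyond their spread. In EpiLC, Cnot1 at 125 ± 2.91 stood above Exosc7 at 84 ± 4.59 and Xrn2 at 83.4 ± 6.35, and the last 2 did not differ beyond their spread. Near the lower end of ESC total RNA stood Cnot6l at 4.53, Tob2 at 4.94, Cnot4 at 5.86, Dis3l at 5.97 and the decapping enhancer Edc3 at 6.37 CPM per kilobase.

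**Figure D1:**
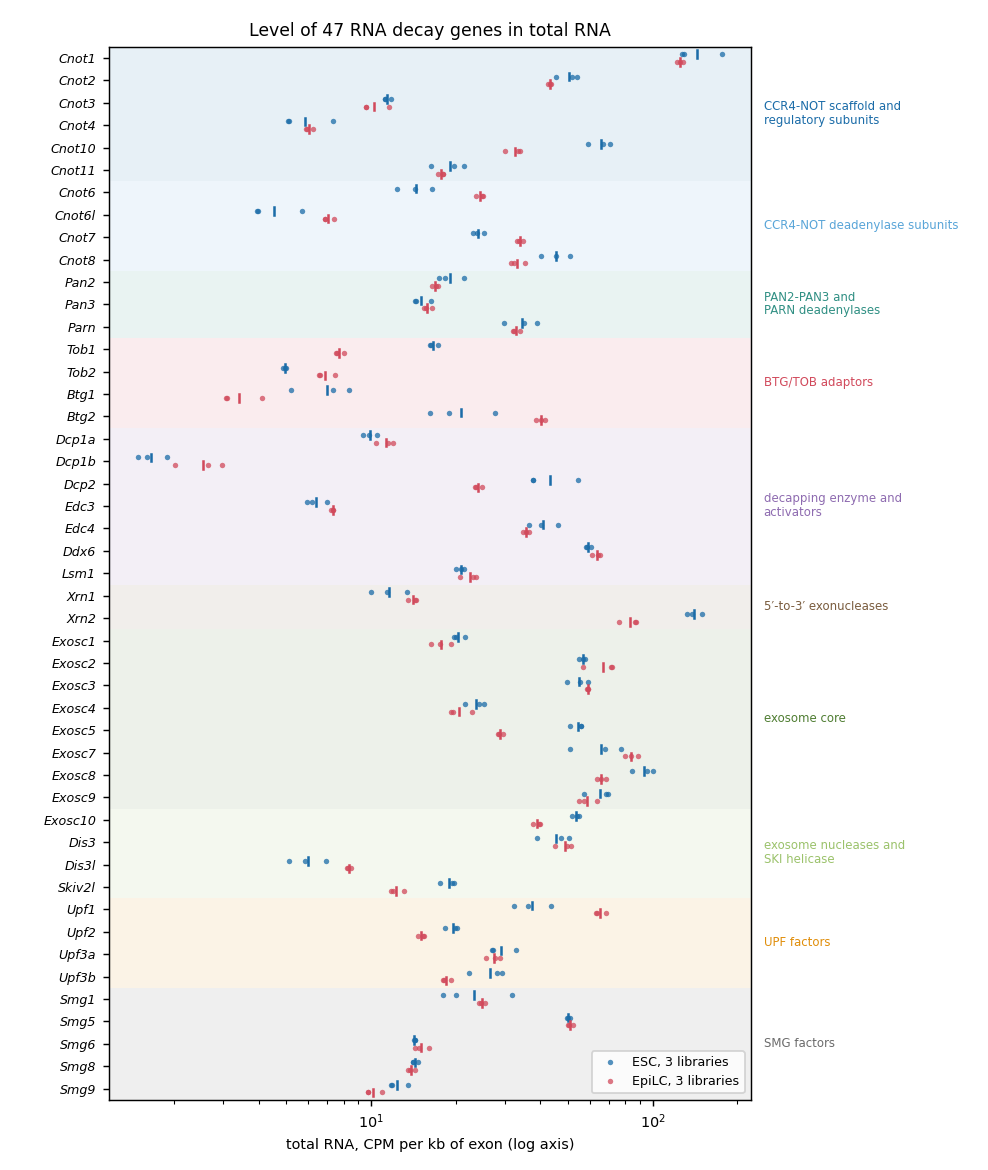
Level of each of the 47 members in total RNA, as CPM per kilobase of exon on a log axis, with 3 ESC libraries (blue) and 3 EpiLC libraries (red) as points and the mean as a bar. Cnot1 has the highest mean in both cell types, within its spread of Xrn2 in ESC, and Dcp1b is lowest. Cnot10, Exosc5, Dcp2 and Xrn2 show ESC and EpiLC points that do not overlap, as do many other members, among them Tob1 and Upf1.

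Changes between the cell types were tested with limma-voom over all genes kept, and the text writes of a change only where the p-value, after Benjamini-Hochberg adjustment over those genes, was under 0.05. In total RNA, 24 of 47 members passed (51.1%), against 63.5% of all genes. Of these, 11 were higher in EpiLC, against 31.4% of all genes, and 13 were lower, against 32.1% of all genes. In nascent RNA, 24 of 47 passed as well (51.1%), against 52.5% of all genes, with 10 higher (23.7% of all genes) and 14 lower (28.8% of all genes). The share of members was under the background in total RNA and near it in nascent RNA. That reading depends on the filter on low counts. Without the filter, 48.9% of members passed in total RNA, against 36.7% of all genes. In nascent RNA 36.2% passed without it, against 26.4% of all genes. In bulk samples, fewer cells of a kind and less RNA per cell cannot be told apart. The changes were small: the median absolute log2 change was 0.23 for the members and 0.53 for all genes in total RNA, and 0.30 and 0.49 in nascent RNA. With a further limit of a 2-fold change, 3 members passed in total RNA (27.6% of all genes) and 2 in nascent RNA (25.5% of all genes). In all, 17 members passed in both assays, each of them in the same direction in both, 7 passed in total RNA only, 7 in nascent RNA only, and 16 in neither.

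Without both ESC replicate 3 libraries, 33 members passed in total RNA (70.2%, against 72.9% of all genes in that fit), 14 of them higher and 19 lower. All 24 calls were kept there and 9 were gained. The members gained were Cnot2 (-0.30), Cnot11 (-0.22), Parn (-0.19), Exosc1 (-0.24), Exosc4 (-0.28) and Exosc9 (-0.26), which were lower, and Smg1 (0.37), Cnot4 (0.23) and Dcp1a (0.22), which were higher, as log2 EpiLC minus ESC. Their limma-voom adjusted p in that fit ran from 0.000263 for Smg1 to 0.0184 for Cnot4 and Exosc1. In nascent RNA 26 members passed without these libraries (55.3%, against 59.4% of all genes in that fit). Edc4 (0.36), Cnot1 (0.17) and Smg9 (-0.39) were gained and Pan3 was lost. Without the filter on low counts, Dcp1b, Exosc2, Exosc7 and Xrn1 lost their call in total RNA, as did Cnot11, Exosc1, Exosc8, Pan3, Smg6, Smg8 and Upf3b in nascent RNA. DESeq2 did not call Exosc2 and Exosc7 in total RNA or Exosc1, Exosc8 and Smg8 in nascent RNA. Exosc1, Exosc8, Smg8 and Upf3b also lost their nascent call with median-of-ratios scaling and with TMM within each assay. Median-of-ratios scaling and the edgeR quasi-likelihood test ended the total RNA call of Exosc2, and library totals alone ended that of Smg9.

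**Figure D2:**
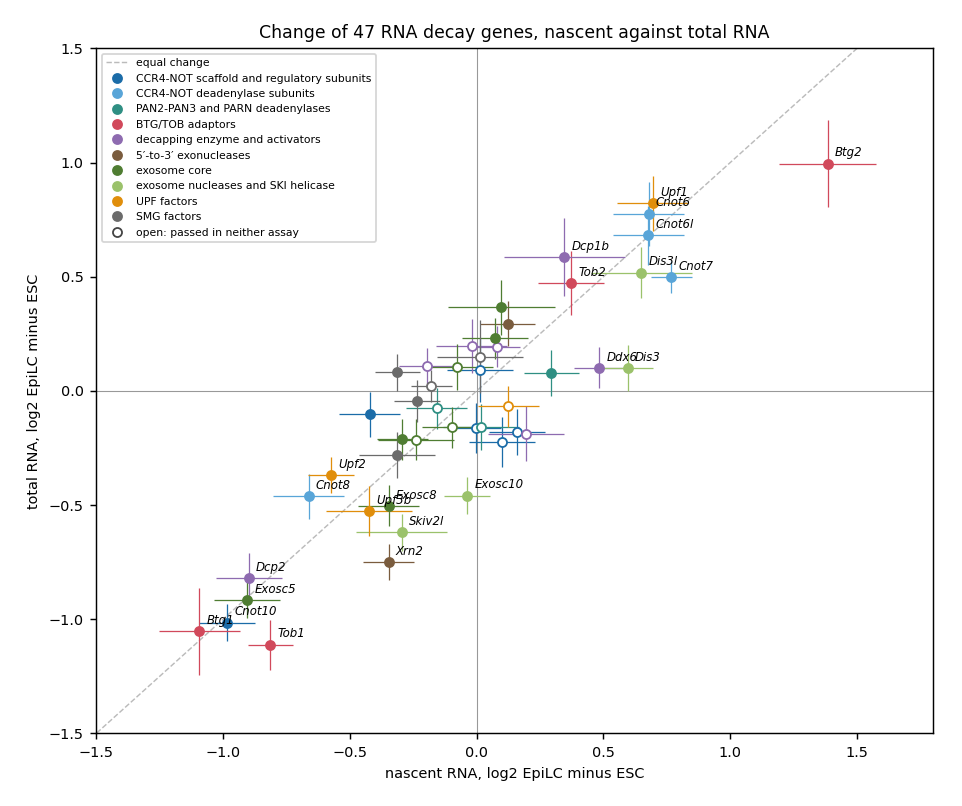
Change of each member in nascent RNA (x axis) and total RNA (y axis), as log2 EpiLC minus ESC with the standard error from limma-voom. Filled points passed in at least 1 assay and the dashed line marks equal change. Btg2 lies at the upper right at 1.38 and 1.00, and Btg1, Cnot10, Tob1, Exosc5 and Dcp2 lie at the lower left.

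The BTG/TOB adaptors, small proteins that bring the CCR4-NOT deadenylases to target mRNAs and restrain proliferation, all passed in both assays, with 2 higher and 2 lower in each. Tob1 had 39.6, 37.5 and 37.1 CPM in the ESC total libraries and 18.4, 17.3 and 17.2 CPM in the EpiLC total libraries. All EpiLC values lay under all ESC values, and Tob1 fell by 1.11 ± 0.11 (SE) on the log2 scale (limma-voom adjusted p = 7.29e-07). Its nascent RNA, at 267, 311 and 343 CPM in ESC and 167, 179 and 174 CPM in EpiLC, fell by 0.81 ± 0.09 (limma-voom adjusted p = 3.65e-06). Tob2, its paralog, moved the other way, from 19.5, 19.7 and 20.1 CPM to 29.8, 26.4 and 26.1 CPM in total RNA, a log2 rise of 0.47 ± 0.14 (limma-voom adjusted p = 0.00976). The nascent libraries of Tob2 overlapped between the cell types, at 75.6, 89.7 and 120.0 CPM in ESC and 127, 118 and 114 CPM in EpiLC. The nascent rise of 0.37 ± 0.13 passed (limma-voom adjusted p = 0.024) but the call was lost in 4 of the fits that left out 1 library, with adjusted p up to 0.16 without ESC 4sU replicate 1.

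Btg1 and Btg2, which arrest the cell cycle in many tissues, also moved in opposite directions. Btg1 had 44.2, 38.9 and 27.6 CPM in ESC total RNA and 21.6, 16.3 and 16.1 CPM in EpiLC total RNA, and fell by 1.05 ± 0.19 on the log2 scale (limma-voom adjusted p = 0.000224). In nascent RNA it went from 205, 225 and 166 CPM to 107, 87.5 and 84.7 CPM and fell by 1.09 ± 0.16 (limma-voom adjusted p = 6.61e-05). Btg2 had 52.1, 44.6 and 75.5 CPM in ESC and 114, 106 and 110.0 CPM in EpiLC total RNA, a rise of 0.996 ± 0.19 (limma-voom adjusted p = 0.000355) that lay just under the 2-fold limit. In nascent RNA it rose from 128, 111 and 205 CPM to 399, 358 and 349 CPM, by 1.38 ± 0.19 (limma-voom adjusted p = 3.34e-05). The ESC replicate 3 libraries were the highest of the ESC libraries for Btg2 and the lowest for Btg1 in both assays, and neither gene's ESC and EpiLC groups overlapped.

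Because nascent RNA of all 4 adaptors changed, their promoter windows are shown, from RefSeq on build GRCm38.p6, each with 250 bases before and 50 after the annotated start. RefSeq windows were found for 39 of the 47 members. Capitals mark the TATA box letters TATAAA, the motif CCAAT, the cAMP response element TGACGTCA and the E box CACGTG. All were searched on both strands, as was the GC box GGGCGG, which is left in lower case.
Btg1, chr10:96616751-96617050, plus strand: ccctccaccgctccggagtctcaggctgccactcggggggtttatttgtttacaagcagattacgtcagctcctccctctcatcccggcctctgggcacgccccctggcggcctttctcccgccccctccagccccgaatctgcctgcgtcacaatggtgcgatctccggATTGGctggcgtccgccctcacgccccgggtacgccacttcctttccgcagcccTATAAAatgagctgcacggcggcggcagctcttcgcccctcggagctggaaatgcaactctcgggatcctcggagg
Btg2, chr1:134079106-134079405, minus strand: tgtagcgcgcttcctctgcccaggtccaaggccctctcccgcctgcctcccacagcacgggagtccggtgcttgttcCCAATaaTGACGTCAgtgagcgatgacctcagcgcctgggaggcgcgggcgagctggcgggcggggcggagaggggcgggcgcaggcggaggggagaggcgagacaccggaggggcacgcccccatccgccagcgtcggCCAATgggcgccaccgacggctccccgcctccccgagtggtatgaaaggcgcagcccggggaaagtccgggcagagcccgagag
Tob1, chr11:94211204-94211503, plus strand: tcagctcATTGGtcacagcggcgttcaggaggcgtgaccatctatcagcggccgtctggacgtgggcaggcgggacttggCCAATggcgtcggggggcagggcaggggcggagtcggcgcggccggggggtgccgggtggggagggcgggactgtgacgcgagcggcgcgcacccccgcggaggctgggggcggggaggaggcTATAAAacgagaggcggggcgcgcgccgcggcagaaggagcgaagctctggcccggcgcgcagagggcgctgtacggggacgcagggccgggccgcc
Tob2, chr15:81858277-81858576, minus strand: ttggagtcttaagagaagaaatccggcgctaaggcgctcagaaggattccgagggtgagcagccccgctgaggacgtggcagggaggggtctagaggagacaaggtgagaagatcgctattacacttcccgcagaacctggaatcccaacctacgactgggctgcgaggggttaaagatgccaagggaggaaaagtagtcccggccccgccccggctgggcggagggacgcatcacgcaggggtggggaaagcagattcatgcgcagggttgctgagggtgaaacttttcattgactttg

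Btg1 and Tob1 were the only members of the 39 whose window held TATAAA (5.13%, against 14.2% of 27025 promoters). It begins 26 and 47 bases before the start. Btg2 was the only member of the 39 with TGACGTCA (2.56%, against 1.88% of promoters), which begins 166 bases before the start. CCAAT was found in 15 member windows (38.5%, against 37.9%), GGGCGG in 29 (74.4%, against 35.9%) and CACGTG in 3 (7.69%, against 7.24%). The 27025 promoters were not limited to genes that passed the filter on low counts, while all 39 members passed it. The 2 sets are therefore unlike, and whether the members differ from other genes kept was not tested. The Tob2 window held only GGGCGG among the 5 motifs. A match is a string of letters in this window and does not say that a factor binds there.

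The CCR4-NOT deadenylase subunits, the catalytic part of the complex, all passed in both assays, with 3 higher and 1 lower. Cnot6 and Cnot6l belong to the CCR4 type of nuclease and Cnot7 and Cnot8 to the CAF1 type, and each complex takes up 1 of each type. Cnot6 total RNA went from 71, 82.8 and 94.5 CPM in ESC to 142, 135 and 143 CPM in EpiLC, a log2 rise of 0.78 ± 0.14 (limma-voom adjusted p = 0.000183). Cnot6l, its paralog, went from 34.7, 35.1 and 50.1 CPM to 65.3, 60.7 and 60.8 CPM, a rise of 0.68 ± 0.13 (limma-voom adjusted p = 0.000341). Both also rose by 0.68 in nascent RNA, and the ESC and EpiLC libraries of neither gene overlapped in either assay.

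The CAF1 paralogs went in opposite directions. Cnot7 rose from 91.3, 88.5 and 96.8 CPM to 126, 129 and 133 CPM in total RNA, by 0.50 ± 0.07 on the log2 scale (limma-voom adjusted p = 1.77e-05). Cnot8 fell from 107, 95.3 and 84.1 CPM to 65.9, 74.4 and 67.5 CPM, by 0.46 ± 0.10 (limma-voom adjusted p = 0.00115). In nascent RNA Cnot7 rose by 0.77 ± 0.08 and Cnot8 fell by 0.66 ± 0.14 (limma-voom adjusted p = 1.36e-06 and 0.00108). For both genes and both assays all ESC libraries lay on 1 side of all EpiLC libraries.

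Among the 6 scaffold and regulatory subunits of CCR4-NOT, 1 passed in total RNA and 2 in nascent RNA, all lower. Cnot10, which with Cnot11 forms a module at the N-terminal end of the scaffold, had 229, 215 and 190.0 CPM in ESC total RNA and 96.6, 110.0 and 108 CPM in EpiLC total RNA. It fell by 1.01 ± 0.08 on the log2 scale (limma-voom adjusted p = 7.16e-08), the smallest adjusted p of any member, and its groups did not overlap. Nascent Cnot10 went from 83.6, 83.4 and 78.5 CPM to 43.1, 42.8 and 37.9 CPM and fell by 0.98 ± 0.11 (limma-voom adjusted p = 6.36e-06). Its module partner Cnot11 fell in nascent RNA by 0.42 ± 0.12 (limma-voom adjusted p = 0.00732) and had a log2 difference of -0.10 ± 0.10 in total RNA (limma-voom adjusted p = 0.385). The scaffold Cnot1, the structural subunits Cnot2 and Cnot3 and the ubiquitin ligase Cnot4 passed in neither assay, with total RNA differences of -0.22 to 0.09. Of these, Cnot2 and Cnot4 passed in total RNA and Cnot1 in nascent RNA without the ESC replicate 3 libraries.

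The other deadenylases moved little. Pan2 and Pan3, the nuclease and the adaptor of the complex that trims long tails first, and Parn, which trims tails of many small RNAs, did not pass in total RNA, with log2 differences of -0.16, 0.08 and -0.08. Pan2 had the largest of these, from 77.3, 81.9 and 95 CPM to 75.5, 73.5 and 77 CPM in total RNA (limma-voom adjusted p = 0.183), and its nascent values of 33.9, 31.8 and 38.7 CPM in ESC overlapped with 34.6, 41.3 and 28 CPM in EpiLC. Pan3 had 95.2, 84.5 and 84.2 CPM in ESC and 96.3, 90.2 and 91.8 CPM in EpiLC total RNA. Nascent Pan3, at 119, 93.5 and 82.8 CPM in ESC and 120.0, 116 and 124 CPM in EpiLC, passed at a log2 rise of 0.29 ± 0.11 (limma-voom adjusted p = 0.0399). That call was lost without both ESC replicate 3 libraries (0.17, limma-voom adjusted p = 0.139) and in 5 of the fits that left out 1 library.

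Of the 7 genes of decapping, 2 passed in total RNA and 2 in nascent RNA. Dcp2, the enzyme that removes the cap, had 329, 329 and 472 CPM in ESC total RNA and 205, 205 and 217 CPM in EpiLC total RNA. It fell by 0.82 ± 0.11 on the log2 scale (limma-voom adjusted p = 1.67e-05), with ESC replicate 3 the highest library and no overlap between the groups. In nascent RNA Dcp2 went from 229, 220.0 and 228 CPM to 115, 128 and 120.0 CPM and fell by 0.90 ± 0.13 (limma-voom adjusted p = 5.33e-05).

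The activating subunits of the enzyme differed from it. Dcp1a had 52.8, 55.2 and 58.8 CPM in ESC and 67.5, 58.5 and 64.5 CPM in EpiLC total RNA, and its log2 difference of 0.19 ± 0.09 did not pass (limma-voom adjusted p = 0.0754), but did without the ESC replicate 3 libraries (0.22, limma-voom adjusted p = 0.0133). Dcp1b, the less abundant form, rose from 4.95, 6.27 and 5.34 CPM to 8.75, 9.81 and 6.69 CPM, by 0.59 ± 0.17 (limma-voom adjusted p = 0.00907). The Dcp1b call rests on the lowest counts of the list and was lost without EpiLC total replicate 2 (adjusted p = 0.0599). In nascent RNA Dcp1a and Dcp1b did not pass, at 0.08 and 0.35.

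Ddx6 passed in nascent RNA and not in total RNA. Its total RNA was 352, 368 and 353 CPM in ESC and 396, 387 and 370.0 CPM in EpiLC, a log2 difference of 0.10 ± 0.09 that did not pass (limma-voom adjusted p = 0.335), although the libraries did not overlap. Its nascent RNA was 326, 328 and 244 CPM in ESC and 410.0, 420.0 and 420.0 CPM in EpiLC, a rise of 0.48 ± 0.10 (limma-voom adjusted p = 0.000762). The scaffold Edc4, the enhancer Edc3 and Lsm1, a subunit of the ring that binds shortened tails, passed in neither assay. Patl1, the protein that links that ring to the decapping enzyme, is no member but completes the pathway. It had a log2 difference of -0.08 ± 0.12 in total RNA (limma-voom adjusted p = 0.597) and fell in nascent RNA by 0.40 ± 0.11 (limma-voom adjusted p = 0.00927).

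The cytoplasmic and nuclear 5′-to-3′ exonucleases moved apart. Xrn2, which also ends transcription at the poly(A) site, had 472, 458 and 516 CPM in ESC total RNA and 261, 298 and 300.0 CPM in EpiLC total RNA. It fell by 0.75 ± 0.08 on the log2 scale (limma-voom adjusted p = 1.95e-06). Its nascent RNA went from 239, 199 and 239 CPM to 168, 183 and 179 CPM and fell by 0.35 ± 0.10 (limma-voom adjusted p = 0.00724). Xrn1, the cytoplasmic enzyme, rose in total RNA from 105, 120.0 and 141 CPM to 141, 150.0 and 152 CPM, by 0.30 ± 0.10 (limma-voom adjusted p = 0.0201). The lowest EpiLC library of Xrn1 met the highest ESC library at 141 CPM, and the call was lost in 4 of the fits that left out 1 library, with adjusted p up to 0.135 without ESC total replicate 1. Nascent Xrn1, at 163, 147 and 128 CPM in ESC and 156, 161 and 160.0 CPM in EpiLC, did not pass (0.12 ± 0.11, limma-voom adjusted p = 0.379).

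Of the 8 core subunits of the exosome, a ring through which RNA is threaded to the nucleases, 2 were higher and 2 lower in total RNA and 3 were lower in nascent RNA. Exosc5 had 108, 108 and 98.8 CPM in ESC total RNA and 54.5, 57 and 55.3 CPM in EpiLC total RNA. It fell by 0.92 ± 0.08 on the log2 scale (limma-voom adjusted p = 1.4e-07). Its nascent RNA went from 36, 44.4 and 40.1 CPM to 22.5, 21.9 and 19.4 CPM, with no overlap in either assay, and fell by 0.90 ± 0.13 (limma-voom adjusted p = 4.32e-05). Exosc8 also fell in both assays, by 0.50 in total RNA (limma-voom adjusted p = 0.000272) and by 0.35 in nascent RNA (limma-voom adjusted p = 0.0293). Its nascent call was lost in 3 of the fits that left out 1 library, with adjusted p up to 0.188 without EpiLC 4sU replicate 2. Another pair of core subunits moved the other way in total RNA. Exosc7 rose by 0.37 from 71.6, 81.1 and 53.9 CPM to 83.8, 93.4 and 88.1 CPM (limma-voom adjusted p = 0.0191), and Exosc2 rose by 0.23 (limma-voom adjusted p = 0.0416). Both rises were fragile. That of Exosc7 was lost without ESC total replicate 3 or without EpiLC total replicate 2, where adjusted p reached 0.0672, and that of Exosc2 was lost in 6 of 12 fits that left out 1 library. Without both ESC replicate 3 libraries the rise of Exosc7 was 0.20 (limma-voom adjusted p = 0.0145). Exosc1, Exosc3, Exosc4 and Exosc9 did not pass in total RNA, at -0.21, 0.10, -0.21 and -0.16, although all but Exosc3 passed without the ESC replicate 3 libraries. Nascent Exosc7, at 27.7, 25.9 and 19.1 CPM in ESC and 28.2, 25.6 and 24.5 CPM in EpiLC, overlapped between the cell types. Exosc6, the remaining subunit of the core and no member, had 0 reads in all 12 libraries and could not be tested for change. Whether its RNA was absent or its reads were not assigned to it was not tested.

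The exosome nucleases and the SKI helicase, which feeds RNA to the cytoplasmic exosome, gave 1 higher and 2 lower members in total RNA. Skiv2l, the helicase, had 76.6, 77.9 and 69.4 CPM in ESC and 46.7, 51.7 and 47.5 CPM in EpiLC total RNA and fell by 0.62 ± 0.08 on the log2 scale (limma-voom adjusted p = 1.41e-05). Nascent Skiv2l, at 16.4, 12.6 and 13.4 CPM in ESC and 11.8, 10.2 and 12.5 CPM in EpiLC, did not pass (-0.30 ± 0.18, limma-voom adjusted p = 0.186). The nuclear nuclease Exosc10 fell in total RNA by 0.46 ± 0.08 (limma-voom adjusted p = 9.96e-05), with a nascent difference of -0.04 ± 0.09. Dis3, the main nuclease of the nuclear exosome, showed the reverse arrangement. Its total RNA was 189, 176 and 144 CPM in ESC and 168, 185 and 192 CPM in EpiLC and did not pass (0.10 ± 0.10, limma-voom adjusted p = 0.386), while its nascent RNA rose from 188, 190.0 and 161 CPM to 270.0, 277 and 267 CPM, by 0.60 ± 0.10 (limma-voom adjusted p = 0.000273). Dis3l, the cytoplasmic form, rose from 21.6, 24.6 and 29.3 CPM to 34.8, 36 and 35.2 CPM in total RNA, by 0.52 ± 0.11 (limma-voom adjusted p = 0.000602).

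In nonsense-mediated decay, 1 of the 4 UPF factors was higher and 2 were lower in total RNA, and 1 of the 5 SMG factors was lower. Upf1, the helicase on which the pathway depends, had 167, 149 and 201 CPM in ESC total RNA and 292, 294 and 317 CPM in EpiLC total RNA. It rose by 0.82 ± 0.12 on the log2 scale (limma-voom adjusted p = 3.31e-05). Nascent Upf1 went from 101, 87.6 and 134 CPM to 171, 180.0 and 157 CPM, again with no overlap. The factors that bridge UPF1 to the exon junction complex did not rise with it. Upf2 fell by 0.37 ± 0.08 in total RNA (limma-voom adjusted p = 0.000784), and Upf3b went from 68.7, 65.8 and 52.4 CPM to 45.1, 42.6 and 42.4 CPM and fell by 0.52 ± 0.11 (limma-voom adjusted p = 0.000831). Upf3a, the paralog of Upf3b, had 55.4, 55.9 and 67.3 CPM in ESC and 52.6, 59 and 57 CPM in EpiLC and did not pass (-0.07 ± 0.09, limma-voom adjusted p = 0.533). Among the SMG factors, which phosphorylate UPF1, control that step or act after it, Smg9 went from 30.2, 26.4 and 26.8 CPM to 21.9, 24.8 and 22 CPM and fell by 0.28 ± 0.10 (limma-voom adjusted p = 0.0252). The Smg9 call was lost in 3 of the fits that left out 1 library, with adjusted p up to 0.102 without ESC total replicate 1. The kinase Smg1, the endonuclease Smg6, and Smg5 and Smg8 did not pass in total RNA, at 0.15, 0.08, 0.02 and -0.04, and Smg6 fell in nascent RNA by 0.31 (limma-voom adjusted p = 0.01). The Smg1 difference was 0.37 without both ESC replicate 3 libraries and passed there (limma-voom adjusted p = 0.000263), as it did without ESC total replicate 3 alone. Nascent Smg8 was 0.24 lower on the log2 scale (limma-voom adjusted p = 0.0333), a call that was lost in 8 of 12 fits that left out 1 library, with adjusted p up to 0.112 without EpiLC 4sU replicate 3.

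Relative mRNA stability was taken as log2 of total over 4sU CPM in a pair of libraries of the same cell type and replicate number, taken as fractions of the same RNA, less the median over all genes kept in that pair. A value of 0 is therefore the middle gene of that pair, and negative values mean less total RNA per nascent RNA than the middle gene. The median over the 47 members was 0.17 ± 0.04 in ESC and 0.06 ± 0.11 in EpiLC (mean ± SD over 3 pairs), so the members as a set sat close to the middle. Single members spread from -3.06 to 2.35 in ESC and from -3.46 to 1.92 in EpiLC. These values describe steady-state ratios and are no half-lives.

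The BTG/TOB adaptors lay toward the unstable end. Tob1 was the lowest member at -2.80, -3.09 and -3.29 in the ESC pairs and -3.35, -3.52 and -3.51 in the EpiLC pairs, at percentile 9.93 in ESC and 4 in EpiLC among all genes kept. Btg1 followed at -2.26, -2.58 and -2.68 in ESC and -2.47, -2.58 and -2.57 in EpiLC. Tob2 had -2.01, -2.23 and -2.67 in ESC and -2.26, -2.32 and -2.30 in EpiLC. Btg1 and Tob2 did not differ beyond their spread in ESC, at -2.50 ± 0.22 and -2.30 ± 0.34. Btg2 was the least extreme of these, at -1.41 ± 0.10 in ESC and -1.90 ± 0.07 in EpiLC, and members of other groups lay as low. Cnot3 (-1.92 and -2.17, means in ESC and EpiLC) was below Btg2 in both cell types, and Cnot4 (-1.65 and -1.71) and Smg8 (-1.55 and -1.46) were below it in ESC only. The median of the 4 genes lay 2.46 to 3.12 below the median of the other members in the 6 pairs.

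The 5 highest members by the mean over both cell types came from several complexes. Skiv2l was the highest member at 2.17, 2.58 and 2.29 in ESC and 1.82, 2.19 and 1.75 in EpiLC, at percentile 97.5 in ESC and 95.3 in EpiLC. Exosc7 had 1.32, 1.60 and 1.41 in ESC and 1.41, 1.72 and 1.67 in EpiLC, and Exosc5 had 1.54, 1.24 and 1.22 in ESC and 1.12, 1.23 and 1.34 in EpiLC. Exosc7 and Exosc5 overlapped in the ESC pairs. Cnot10 (1.3 ± 0.11 in ESC and 1.18 ± 0.17 in EpiLC) and Pan2 (1.22 ± 0.09 and 0.98 ± 0.30) came next and were within the spread of Exosc5, while the exosome nuclease Dis3 was below the middle gene at -0.14 ± 0.10 and -0.74 ± 0.09. Of the 8 exosome core genes, all but Exosc1 (-0.86 and -0.89) were above 0 in both cell types, with a group median of 0.89 in ESC and 0.68 in EpiLC. The CCR4-NOT deadenylase subunits had a group median of -0.72 in ESC and -0.92 in EpiLC, with Cnot8 at 0.54 and 0.63 above its paralog Cnot7 at -0.30 and -0.68.

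**Figure D3:**
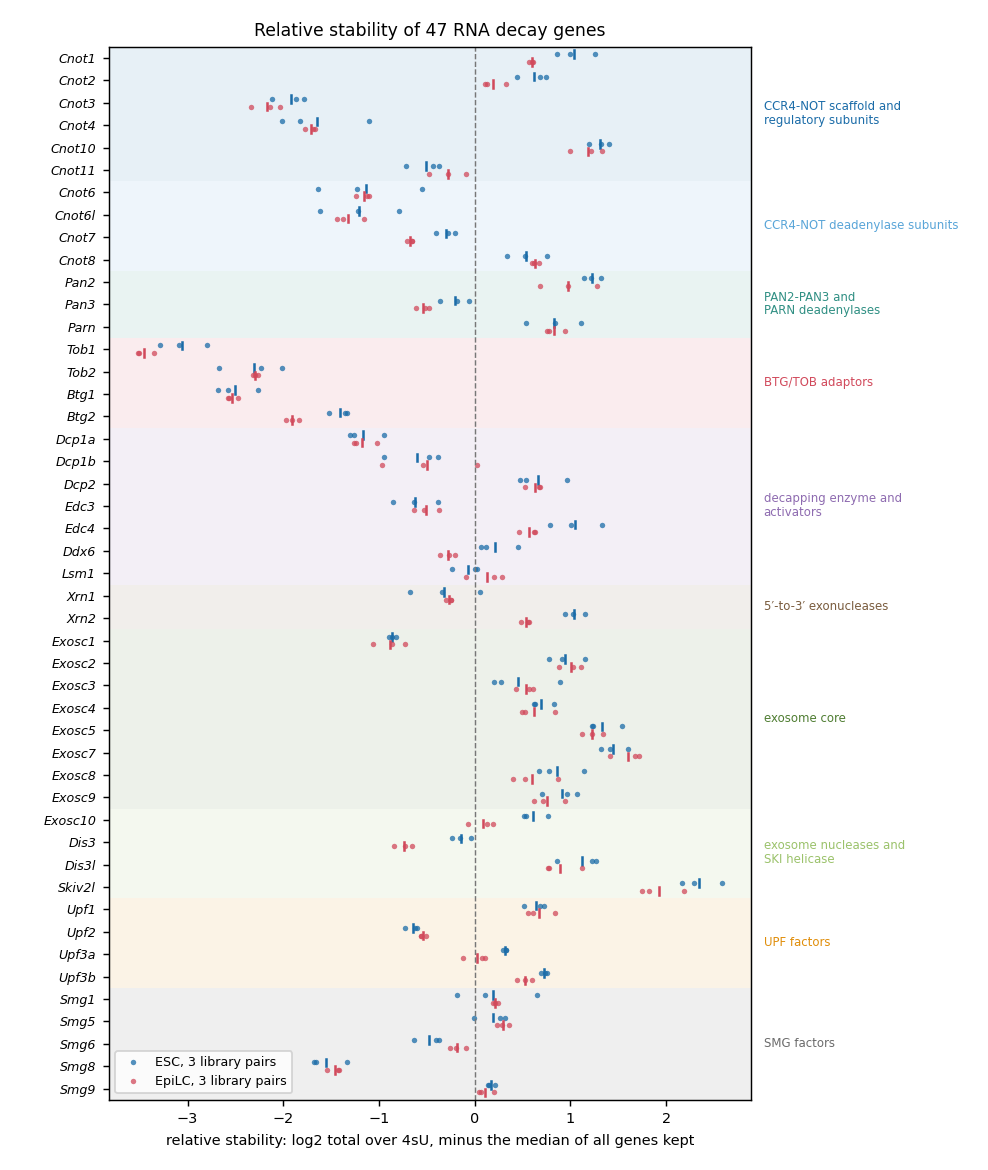
Relative stability of each member, as log2 of total over 4sU RNA less the median of all genes kept, for 3 ESC library pairs (blue) and 3 EpiLC library pairs (red), with the mean as a bar and members ordered by role. The 4 BTG/TOB adaptors lie between -3.52 and -1.34, and Skiv2l lies furthest right, between 1.75 and 2.58.

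The adaptors shared a gene structure that was not used to choose them: each has 2 exons in its principal transcript, the fewest of the 47 members, whose median was 12 exons. Across the 47 members, the number of exons had a Spearman's rho of 0.413 with relative stability in ESC and 0.344 in EpiLC, and rho was 0.242 and 0.148 over the 43 members without the adaptors. Over 12093 genes in ESC the same rho was 0.24. The length of the 3′ UTR had a rho of -0.43 in ESC and -0.388 in EpiLC across the members, -0.391 and -0.336 without the adaptors, and -0.275 over all genes in ESC. These correlations are across genes that share the same libraries, and are given as descriptions. Reads of both fractions were counted over exons only, so reads from introns of nascent RNA are left out of the ratio. How far such counting ties the ratio to the number of exons was not tested. The low values of the adaptors therefore cannot be assigned to decay rather than to counting on genes with few exons. Tob1, the least stable member, had a 3′ UTR of only 767 bases, while that of Btg1 had 4166.

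Known stability motifs in the 3′ UTR were counted on the transcript strand. The AU-rich core TATTTAT was found in 12 members (25.5%), against 29% of 12143 genes. The Pumilio motif TGTANATA was found in 15 (31.9%, against 25.7%). The 7-base match AGCACTT to the miR-290 and miR-302 families, the main microRNAs of ESCs and EpiLCs, was found in 8 (17%, against 16.3%). Among the adaptors, Btg2 and Tob2 each held an AU-rich core, Btg1 and Tob2 each held the microRNA match, and Tob1 held none of the 3. Btg1 also held 2 Pumilio motifs. Among genes with a 3′ UTR of like length (within 20%), the AU-rich core was in 41.9% for Btg2 and 44.6% for Tob2. By the same measure the microRNA match was in 39.3% for Btg1 and 27.5% for Tob2, and the Pumilio motif in 53.6% for Btg1. Members of higher relative stability held motifs too. Dcp2, above the middle gene at 0.66 in ESC and 0.63 in EpiLC, held 5 microRNA matches, 2 AU-rich cores and 1 Pumilio motif. A link between motifs and stability was not tested. The AU-rich and microRNA sites of Btg1, Btg2 and Tob2 are shown from the reference (GRCm38), with the motif in capitals. They were picked because the adaptors are a group of low relative stability.
Btg2 AU-rich core, chr1:134077250-134077276, minus strand: aatgaagagcTATTTATacatgttttt
Tob2 AU-rich core, chr15:81849861-81849887, minus strand: atcacctgctTATTTATgtacgaggtt
Tob2 microRNA match, chr15:81850127-81850153, minus strand: tagggaggttAGCACTTtttctaattg
Btg1 microRNA match, chr10:96619135-96619161, plus strand: acttttacctAGCACTTaaaatgtata
The mature microRNAs that share this seed (bases 2 to 8, in capitals, from RefSeq) include a member of each family.
mmu-miR-294-3p: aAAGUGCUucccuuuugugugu
mmu-miR-302b-3p: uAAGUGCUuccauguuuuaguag

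Whether relative stability differed between the cell types was tested as the interaction of cell type and assay. None of the 47 members passed with limma-voom, against 4.6% of all genes (2.72% higher and 1.88% lower in EpiLC), while 8 had an unadjusted p under 0.05. The interaction had a median of 0.11 over all genes in this fit and of 0.03 with DESeq2. Unlike the relative stability values above, it is not centred on the middle gene, so the 2 scales differ by a shift. The smallest adjusted p values were 0.0565 for Exosc10 (-0.42), 0.062 for Dis3 (-0.50), 0.0769 for Smg6 (0.39), 0.0815 for Xrn2 (-0.40) and 0.102 for Ddx6 (-0.38), where the value in brackets is the log2 difference EpiLC minus ESC. The edgeR quasi-likelihood test also called 0 members, against 4.81% of all genes, with 9 members at an unadjusted p under 0.05. DESeq2 called 5 (10.6%), all lower, against 8.31% of all genes, of whose calls 34.6% were higher. The count depended on the pairing of the fractions. With a replicate block of each culture, 6 members passed (12.8%, against 11.8% of all genes in that fit). Dis3 (-0.50, limma-voom adjusted p = 0.00904), Xrn2 (-0.40, 0.0217), Btg2 (-0.39, 0.0279), Exosc10 (-0.42, 0.0367) and Ddx6 (-0.38, 0.0468) were lower and Smg6 (0.40, 0.0443) was higher in that blocked fit. The count also depended on the ESC replicate 3 libraries. Without both of them 12 members passed (25.5%), 5 higher and 7 lower, against 20.4% of all genes in that fit. Dis3 (-0.51, limma-voom adjusted p = 0.000883), Edc4 (-0.46, 0.00543), Exosc10 (-0.44, 0.00995), Btg2 (-0.42, 0.0173), Xrn2 (-0.38, 0.0182), Tob1 (-0.38, 0.0349) and Ddx6 (-0.24, 0.0309) were the 7 lower ones. Smg6 (0.44, 0.0102), Cnot6 (0.39, 0.013), Smg1 (0.38, 0.0332), Xrn1 (0.37, 0.0172) and Cnot4 (0.33, 0.047) were the 5 higher ones, each with its limma-voom adjusted p.

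The balance between related genes was read as the ratio of their reads per kilobase within the same library, which does not depend on scaling between libraries. With 3 libraries against 3, the exact permutation test cannot go below p = 0.1, and the smallest adjusted p over the 16 comparisons of 8 pairs was 0.229, so no ratio could pass. Non-overlap is therefore a description here. In total RNA, 3 of the 8 pairs had ESC and EpiLC ratios that did not overlap, and in nascent RNA 4 did. The share among other pairs of genes was not computed, so these counts do not show a trait particular to these pairs.

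The ratio of Cnot7 to Cnot8 was 0.466, 0.508 and 0.63 in the ESC total libraries and 1.05, 0.95 and 1.08 in the EpiLC total libraries, a 1.93-fold shift (exact permutation p = 0.1, two-sided, n = 3 each). In nascent RNA it was 0.952, 0.852 and 1.05 in ESC and 2.55, 2.40 and 2.69 in EpiLC. Per kilobase of exon, Cnot8 was thus above Cnot7 in every ESC total library, and the pair was near parity in EpiLC. The near parity depends on the lengths used, 3837 bases of exon for Cnot7 and 2099 for Cnot8. The principal transcript of Cnot7 has only 2982 bases. With that length every ratio would be higher, and Cnot8 would still be above Cnot7 in every ESC total library. The fold shift between the cell types does not depend on length. The ratio of Cnot6 to Cnot6l was steadier, at 3.15, 3.63 and 2.90 in ESC and 3.35, 3.42 and 3.62 in EpiLC total RNA, a log2 difference of 0.11 that overlapped (exact permutation p = 0.4).

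The ratio of Tob1 to Tob2 was 3.55, 3.32 and 3.22 in ESC and 1.08, 1.15 and 1.15 in EpiLC total RNA, a 2.99-fold drop, and 6.15, 6.04 and 4.98 against 2.29, 2.64 and 2.67 in nascent RNA. The ratio of Btg1 to Btg2 was 0.441, 0.454 and 0.19 in ESC and 0.0989, 0.0799 and 0.0758 in EpiLC total RNA, a 3.99-fold drop. In nascent RNA it was 0.832, 1.06 and 0.422 in ESC and 0.14, 0.127 and 0.126 in EpiLC, a 5.49-fold drop. ESC replicate 3 was the ESC library closest to EpiLC for Btg1 to Btg2 in both assays. Each of these ratios had an exact permutation p of 0.1, the smallest possible.

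The other pairs shifted less. Upf3a to Upf3b went from 1.18, 1.32 and 1.95 to 2.07, 2.02 and 2.16 in nascent RNA without overlap, and the total RNA ratios overlapped, at 0.92, 0.967 and 1.46 against 1.33, 1.58 and 1.53. Dcp1a to Dcp1b, at 5.97 in ESC and 4.50 in EpiLC total RNA (exact permutation p = 0.2), and Dis3 to Dis3l, at 7.65 and 5.83 (exact permutation p = 0.3), overlapped. Pan2 to Pan3, partners in 1 complex and not paralogs, had a ratio of 1.26 in ESC and 1.07 in EpiLC total RNA (exact permutation p = 0.3).

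**Figure D4:**
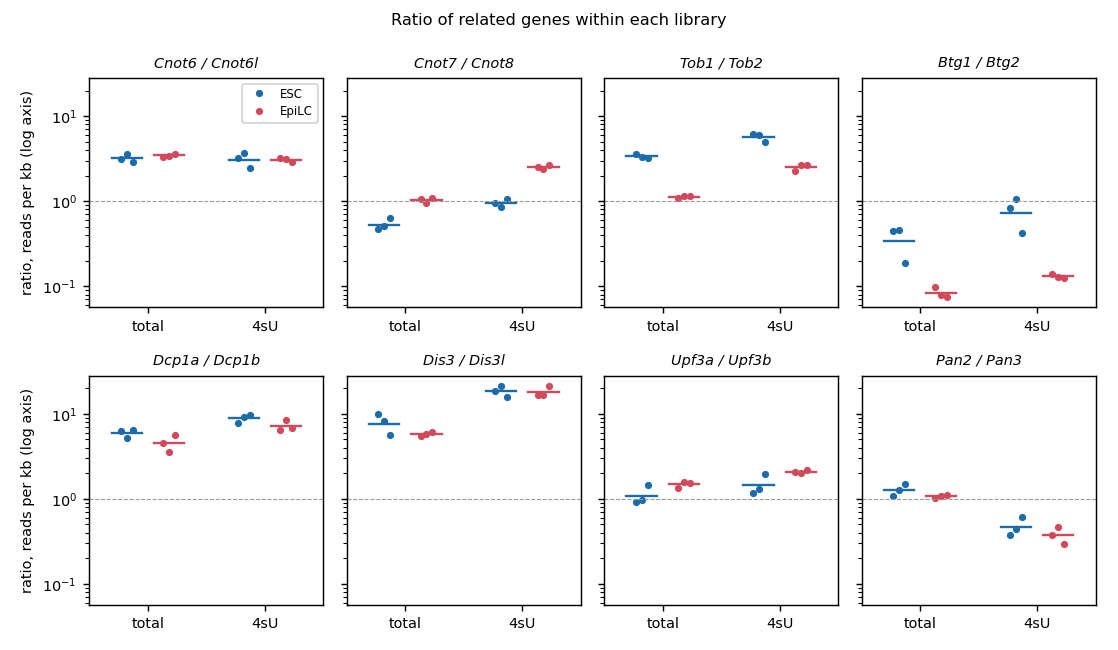
Ratio of reads per kilobase of exon between the genes of each pair, within each library, on a log axis, for total and 4sU RNA in 3 ESC (blue) and 3 EpiLC (red) libraries, with the mean of the log ratios as a bar. The Cnot7 to Cnot8 ratio moves from 0.53 to 1.03 in total RNA, and the Tob1 to Tob2 and Btg1 to Btg2 ratios drop in both assays.

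Other genes of the same pathways, 57 partners that the list of members lacks, were read in the same fits, and 56 of them were tested. In total RNA 12 were higher and 13 lower (44.6%, against 63.5% of all genes). In nascent RNA 12 were higher and 11 lower (41.1%, against 52.5% of all genes). Their median absolute log2 change in total RNA was 0.20, close to the 0.23 of the members and under the 0.53 of all genes. Noct, a nuclease related in sequence to the CCR4 deadenylases, was the partner that rose over 2-fold in total RNA. It had 34, 36 and 51.5 CPM in ESC and 97.8, 81.4 and 86.8 CPM in EpiLC, without overlap, a log2 rise of 1.17 ± 0.17 (limma-voom adjusted p = 3.57e-05), and rose by 1.63 ± 0.17 in nascent RNA (limma-voom adjusted p = 2.71e-06).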

How the data were processed

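Per the labels and the study's methods, the authors trimmed adapters with cutadapt 1.14, aligned strand-specific single-end reads of 50 bases with STAR 2.5.3a to mm10, kept uniquely aligned reads and counted them over exons of GENCODE M14 genes with featureCounts 1.5.3. The deposited values are raw counts per gene. Unique alignment lowers counts of genes with near-identical copies, and strand-aware counting separates the 13 members whose exons overlap a gene on the opposite strand. Cnot3 overlaps a microRNA gene on its own strand. The 92 spike-in entries held 0 reads, so all levels are relative to each library's total.

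From these counts, gene levels were computed as CPM after TMM scaling (the trimmed mean of M values of edgeR 4.0.16). The filter kept genes that reached 3 CPM in 3 or more libraries. One linear model of 4 group means over all 12 libraries was fitted with limma-voom (limma 3.58.1, R 4.3.3), with Benjamini-Hochberg adjustment over 14731 genes, at a threshold of 0.05. Every adjusted p for a gene comes from it unless another tool or another fit is named. Such fits left out libraries or added a block, and each adjusted over the genes kept in it. Scripts were tested on simulated data. Alternatives used DESeq2 1.42.0 and edgeR's quasi-likelihood test, other scalings and filters, quality weights, replicate blocks and each library left out. Symbols were looked up in GENCODE M21, where 51274 gene IDs had a match. Transcript features were computed for 12143 protein-coding genes, and sequences came from RefSeq and GENCODE on GRCm38, the assembly of mm10. Pairs, means and SDs use 3 libraries per group; 4sU and total libraries of the same number were paired, since the methods say that labelled RNA was split into the fractions. Deviations of same-numbered libraries correlated at 0.163 to 0.408 in ESC (-0.394 to 0.291 between different numbers) and at 0.023 to 0.075 in EpiLC (-0.076 to 0.049). These ranges overlapped in both cell types. ESC 4sU replicate 2 correlated with total replicate 1 at 0.291 and with total replicate 2 at 0.296. The correlations therefore cannot settle the pairing, and the fit with a block is given beside the stability calls. The study calls the replicates biological. Whether each was a separate culture is not given in the sources used here, so p-values measure the spread between these samples. Reads carried no molecular identifiers, so depth sets counting error only.

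The members and lists were chosen with earlier results of these data known. Values in every library are given for members past the threshold and over 2-fold in either assay, the largest change of each role group, Ddx6, Xrn1, the 3 most and 3 least stable members, and both genes of each pair. Partner genes are named where they passed and rose or fell over 2-fold in total RNA, besides Patl1 and Exosc6. Python 3.11.15, numpy 2.4.6, pandas 2.3.3 and scipy 1.17.1 were used.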

Additional observations from a re-analysis of the deposited data

Results flagged for a closer look

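No member showed a difference in stability between the cell types that passed in the fit without a block. Among the 56 partner genes, 4 did (7.14%, against 4.6% of all genes), named here after their values were seen, because their change in total RNA differed from their change in nascent RNA by the interaction test of limma-voom. Dhx34, a helicase of nonsense-mediated decay, had an interaction of 0.81 ± 0.17 (log2, EpiLC minus ESC, limma-voom adjusted p = 0.02), with total RNA at 27.3, 28.2 and 31.8 CPM in ESC and 36.7, 39 and 36.4 CPM in EpiLC. C1d, a cofactor of the nuclear exosome, had 0.70 ± 0.17 (limma-voom adjusted p = 0.0317), with nascent RNA at 25.9, 35.8 and 31.9 CPM in ESC and 19.7, 18.3 and 18.8 CPM in EpiLC. Lsm6, a subunit shared by the decapping and splicing rings, had 0.57 ± 0.13 (limma-voom adjusted p = 0.0242), with total RNA at 37.7, 40.9 and 41.6 CPM in ESC and 73.5, 80.9 and 82.9 CPM in EpiLC. Etf1, the translation termination factor, had -0.54 ± 0.09 (limma-voom adjusted p = 0.00959), with nascent RNA at 345, 391 and 341 CPM in ESC and 521, 487 and 494 CPM in EpiLC.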

How the results depend on the processing

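Of the 48 calls of members in total or nascent RNA, 34 held in every alternative fit, and no called change turned its sign in any of them. Leaving out 1 library gave 21 to 30 members in total RNA, 17 to 25 in nascent RNA and 0 to 3 in stability (0 to 1 higher, 0 to 2 lower). With the 2-fold limit, 3 members passed in total RNA (0 higher, 3 lower) and 2 in nascent RNA (1 higher, 1 lower). Without a filter on low counts, 7 members were higher in total RNA and 8 lower in nascent RNA, and the stability medians were 0.48 in ESC and 0.31 in EpiLC. Sample quality weights gave 34 members in total RNA (72.3%, against 75.8% of all genes), 20 of them lower. Members changed in stability, 0 in the fit reported, numbered 3 with median-of-ratios scaling (3 lower; 5.25% of all genes passed), 2 with TMM within each assay (2 lower; 4.86%), 1 with library totals alone (1 higher; 5.71%), 5 with DESeq2 (5 lower; 8.31%), 7 with quality weights (1 higher, 6 lower; 19.3%) and 12 without both ESC replicate 3 libraries (5 higher, 7 lower; 20.4%). With the replicate block over all libraries 24 members passed in total RNA (63.6% of all genes) and 24 in nascent RNA (55.3%). In stability 1 passed in that fit (1 lower, against 6.61% of all genes). With a replicate block of each culture 6 passed in stability (1 higher and 5 lower, against 11.8%). The cause of these differences was not tested. Library totals moved the median of all genes in total RNA to 0.11 from 0.02, with 56.2% of calls higher against 49.5%. The stability interaction had a median over all genes of 0.11 in the fit reported and 0.18 with library totals. It was 0.06 with TMM within each assay and 0.03 with median-of-ratios scaling and with DESeq2. The member medians of relative stability do not change with scaling, because a shift common to all genes is removed within each pair. Depth of the 4sU libraries limits the nascent and stability values of Dcp1b, Skiv2l and Dis3l, which had as few as 24, 42 and 42 reads.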
